A study of Mus musculus with 18 samples.

Results

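RNA sequencing compared 3 mouse tumours taken after cryo-thermal therapy combined with an antibody against PD-1 with 3 taken after cryoablation combined with the same kind of antibody. The tumours that were sequenced had not themselves been ablated: in each animal another tumour was treated and an untreated side tumour was resected. Cryoablation destroys tissue by freezing, and cryo-thermal therapy follows freezing with heating. Every one of the 6 animals received anti-PD-1, so the comparison is between the ways of ablating, with the antibody held the same. These 6 tumours are part of a series of 18, with 3 in each of 6 groups, which also holds cryoablation, cryo-thermal therapy and radiofrequency ablation without the antibody and radiofrequency ablation with it. Expression is in FPKM, a fragment count scaled to the length of the gene and the size of the library. Of 26538 genes in the table, the 12587 whose FPKM averaged 0.5 or more over the 18 tumours were tested. The sources used here do not give the tumour line, the strain, sex or age of the mice, the dose of antibody or the time of resection. Nothing in the labels ties the 3 tumours of a group to separate cages or days, so p-values measure the spread between these samples.

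PD-1 is an inhibitory receptor that T cells carry after activation, and its ligands PD-L1 (Cd274) and PD-L2 (Pdcd1lg2) sit on tumour and myeloid cells. T cells and natural killer (NK) cells that recognise a target release granzymes and perforin, and they secrete interferon gamma. Interferon gamma acts on genes through DNA elements called GAS sites and switches on IRF1, antigen presentation by the major histocompatibility complex (MHC), and the GTPases of the guanylate-binding and immunity-related families. Type I interferons act through a complex with IRF9 that binds another element, the ISRE, in the promoters of antiviral genes, so the gene sets of both interferons overlap.

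With anti-PD-1 in both groups, 408 genes were higher and 103 were lower after cryo-thermal therapy than after cryoablation at an adjusted p under 0.05, together 4.06% of the genes tested (3.24% higher and 0.818% lower). The genes that rose were led by those of cytotoxic lymphocytes, interferon gamma, its GTPases and antigen presentation. Those that fell included resident macrophage genes, caveolin genes and some histone genes. Of the genes that rose, 116 changed by more than 2-fold, and of those that fell, 6 did. The median log2 fold change, on the log2(FPKM + 1) scale on which all fold changes here are given and which understates the change of low genes, was 0.68 among the genes that rose, -0.40 among those that fell and 0.009 over all genes tested. FPKM values did not overlap between the groups for 406 of the 408 and for all 103, against 25.9% of all genes tested (15.5% higher and 10.4% lower). The calls were made on these same values, so this lack of overlap follows largely from the selection and is no separate support for them. For genes named below as the largest log2 changes it was also a condition of the choice. The smallest adjusted p, 0.00151, was that of Bcl3, a nuclear partner of NF-kappaB. Scaling by quantiles changed the balance of directions, with 67% of 436 called genes higher in place of the 408 of 511 above.

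The number of calls rested on single tumours. Leaving out cryo-thermal tumour 2 or 3 left 3 or 17 genes past the threshold, and leaving out cryoablation tumour 2 or 3 left 2 or 2, whereas leaving out cryo-thermal tumour 1 gave 604 and leaving out cryoablation tumour 1 gave 1052. A fit to these 6 tumours alone, which estimates the spread from them, called 0 genes in limma and had 2462 at an unadjusted p under 0.05, against 2605 in the fit to all 18. These 2605 of the 12587 genes tested are the background for the list counts at an unadjusted p given below. No gene of the 511 changed sign in any of the alternatives run. Each gene described below as having risen or fallen passed in the fit to 18 tumours, and the spread it was judged against is that of all 6 groups.

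Libraries were alike in the facts that the table gives. FPKM values summed to between 415690 and 442383, and between 5995 and 7191 genes were at 0. The depth of sequencing was not compared, as the table holds no fragment counts. Pairs of tumours correlated across genes with Pearson r of 0.988 to 0.996 inside a group and 0.986 to 0.996 across groups, on log2 values. Cryoablation tumour 1 stood apart in the genes described here: it was the highest of its group in 347 of the 408 genes that rose, or 85.0%, against 35.3% of all genes tested. Over those 408 genes its median lay 0.35 log2 units above the mean of the other cryoablation tumours, and the cryo-thermal group lay 0.78 above that mean. Cryo-thermal tumour 1 was the lowest of its group in 298 of them, or 73.0%, against 50.8% of all genes tested. The tumours also differed in RNA of neighbouring tissues. The 17 genes of an epidermal keratinocyte list summed to between 201 and 340 FPKM in the cryoablation group and to between 72.3 and 735 in the cryo-thermal group, highest in its tumour 1. The 20 genes of a skeletal muscle list summed to between 120.2 and 142 FPKM and to between 70.1 and 104.0, and the 9 erythroid genes to between 60.5 and 113 and between 87.3 and 328. No defining marker of these 3 tissues was at 0 in all 6 tumours. With the skeletal muscle level of each tumour as a covariate 109 genes passed, 100 of them among the 511, and with the erythroid level 1055 passed, 496 of them among the 511. Fold changes did not shrink with the muscle covariate in the lists with the highest medians described below: the median was 2.25 in place of 2.02 for immunity-related GTPases, of which 0 then passed, and 1.68 in place of 1.52 for cytotoxic lymphocytes, of which 6 passed.

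Interferon gamma itself was among the genes that rose. Ifng was at 3.56, 3.66 and 2.62 FPKM in the cryo-thermal tumours and at 1.05, 0.109 and 0.0858 in the cryoablation tumours. The groups did not overlap, and cryoablation tumour 1 lay well above the other tumours of its group. The mean was 3.28 ± 0.574 against 0.415 ± 0.549 FPKM (SD, n = 3 each), a log2 fold change of 1.66 with a standard error (SE) of 0.26 and an adjusted p of 0.0101. Of 8 tested genes of type 1 lymphocytes, those that make interferon gamma, 5 rose and the median log2 fold change was 0.81. The others that rose were the interleukin 12 receptor chain Il12rb1 (1.51), the interleukin 18 receptor chain Il18rap (1.30), the chemokine receptor Cxcr6 (1.07) and the transcription factor Runx3 (0.55).

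Cytotoxic genes rose together. Of 13 tested members of the cytotoxic lymphocyte list, 9 were higher and 0 lower, with a median log2 fold change of 1.52. Granzyme B (Gzmb), a protease of killer cell granules, was at 23.2, 23.4 and 24.4 FPKM after cryo-thermal therapy and at 9.39, 2.27 and 2.59 after cryoablation. The cryo-thermal tumours lay close together, above the whole cryoablation group. The log2 fold change was 2.31 (SE 0.47, adjusted p = 0.0219). Granzyme A (Gzma) was at 11.9, 9.49 and 8.17 against 3.00, 0.300 and 1.15 FPKM, higher by 2.26 on the log2 scale (SE 0.57, adjusted p = 0.0397). Nkg7, a granule membrane protein, rose from a mean of 3.40 ± 2.97 to 14.6 ± 1.12 FPKM, and perforin (Prf1) from 2.02 ± 1.64 to 7.51 ± 0.221. The CD8 chains moved with them: Cd8a was at 4.72, 5.93 and 6.31 FPKM against 3.09, 0.735 and 0.381, higher by 1.63 on the log2 scale (SE 0.33, adjusted p = 0.0225). Cd8b1 differed by 1.55. Cryoablation tumour 1 carried the highest level of its group in all 13 genes of the list. Without it 11 of the 13 passed, and the median was 1.83. Omitting cryoablation tumour 2 or 3, or cryo-thermal tumour 2 or 3, left 0 of them. Leaving out the 3 tumours richest in skin RNA (cryoablation tumours 1 and 2 and cryo-thermal tumour 1) left only cryoablation tumour 3 in its group. The median was then 1.78.

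Genes of the T cell receptor complex and its signalling showed the same direction, with 7 of 12 tested members higher, 0 lower and a median of 1.00. Cd3d, a chain of the receptor complex, was at 2.80, 3.23 and 3.78 FPKM after cryo-thermal therapy and at 1.68, 0.420 and 0.395 after cryoablation (log2 fold change 1.29, SE 0.25, adjusted p = 0.0181). The kinase Lck rose by 1.32, the adhesion receptor Cd2 by 1.34 and Cd3g by 1.51. Cd3e, at 4.24 ± 0.486 against 1.53 ± 1.74 FPKM, differed by 1.25 with an adjusted p of 0.0737. Cd4 was at 1.71 ± 0.12 against 1.00 ± 0.422 FPKM, a difference of 0.46 (adjusted p = 0.25). In a list of naive and recirculating T cell genes 0 of 7 passed in limma, 1 was at an unadjusted p under 0.05 and the median was -0.10. Here the homing factors Klf2 and S1pr1 differed by -0.25 (adjusted p = 0.487) and -0.10 (adjusted p = 0.868). Of 11 NK cell genes 6 rose, with a median of 0.85, among them the receptor subunits Klrd1 (1.44) and Klrc1 (1.21), the chemokine Xcl1 (1.49) and the interleukin 2 receptor chain Il2rb (1.40). The activating receptor Ncr1, which marks NK cells, was at 0.837 ± 0.15 against 0.377 ± 0.364 FPKM, with overlapping groups and an adjusted p of 0.158. Several genes of that list are also expressed by CD8 T cells. In bulk tumours, more cells of a type and more RNA per cell cannot be told apart.

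In the checkpoint list, which holds receptors that restrain T cells, ligands of such receptors and an ectoenzyme, 6 of 10 genes rose with a median of 0.90. Pdcd1, which encodes the target of the antibody, was at 2.90, 3.59 and 3.94 FPKM in the cryo-thermal group and at 1.97, 0.520 and 0.591 in the cryoablation group (log2 fold change 1.21, SE 0.28, adjusted p = 0.0312). Its ligand Cd274 was at 15.5, 18.7 and 21.2 against 10.3, 3.71 and 3.13 FPKM (1.68, SE 0.37, adjusted p = 0.0258). The groups did not overlap for either gene, and the cryoablation tumour nearest to the cryo-thermal group was tumour 1. The other ligand, Pdcd1lg2, was at 1.77, 5.31 and 7.20 against 1.02, 0.310 and 0.365 FPKM, a ratio of means of 8.42. Lag3, Havcr2 and the ectoenzyme Entpd1 rose by 1.17, 0.71 and 0.80. Ctla4 differed by 0.99 (adjusted p = 0.074) and Tigit by 0.63 (adjusted p = 0.132). In the regulatory T cell list 2 of 7 genes rose, Il2ra and Tnfrsf4, both by 0.66, and both are also carried by other activated T cells. Foxp3, which defines regulatory T cells, was under the filter on low values.

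**Figure D1:**
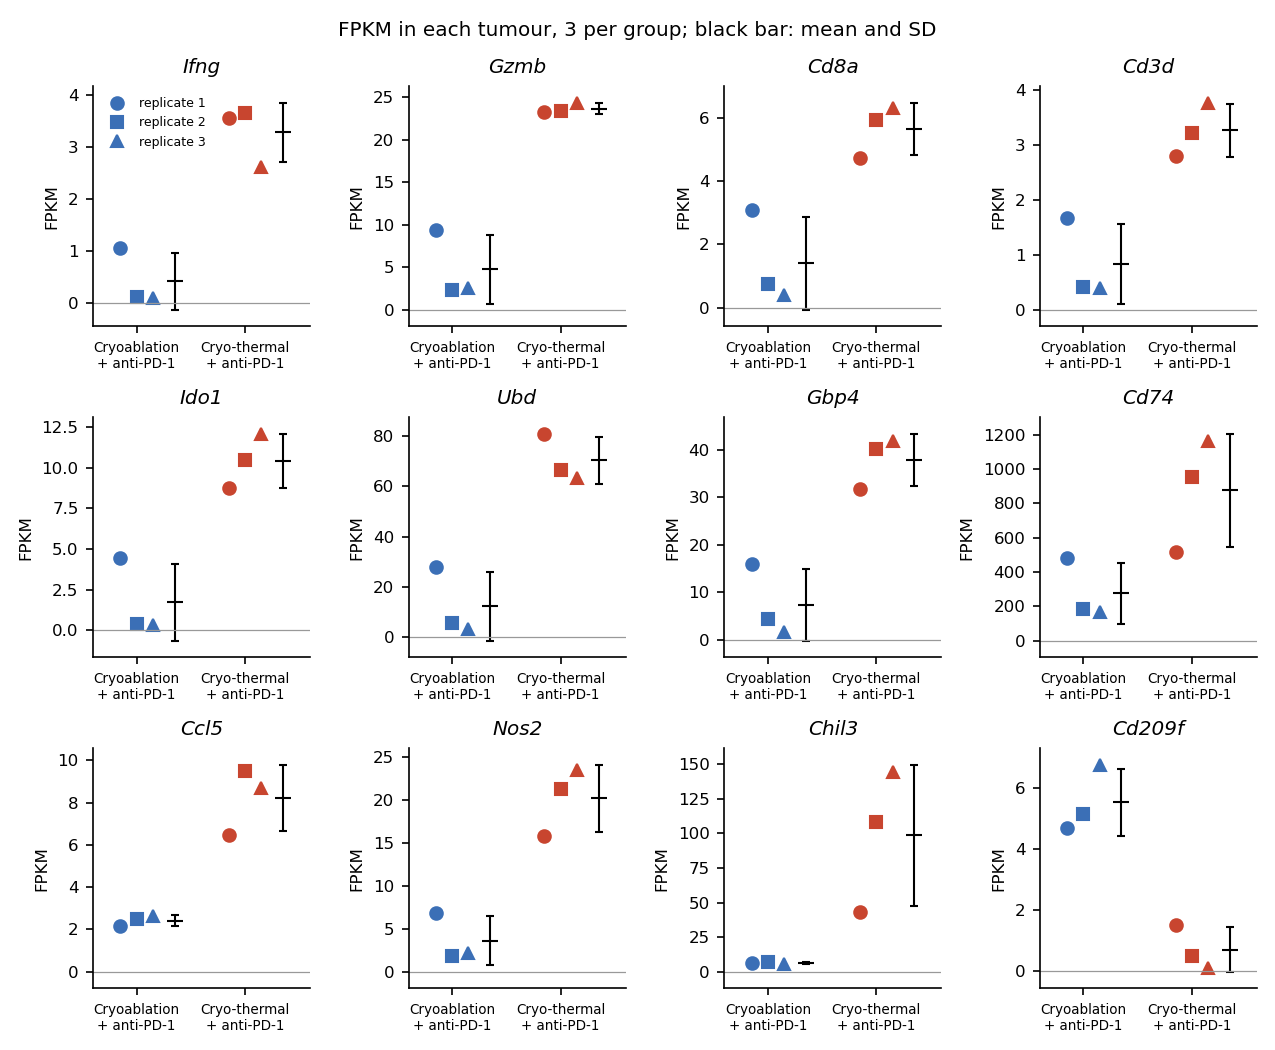
FPKM of 12 genes in each of the 6 tumours (vertical axis, linear, with the line at 0), cryoablation plus anti-PD-1 in blue and cryo-thermal plus anti-PD-1 in red; marker shape gives the replicate number and black bars the mean and SD of 3 tumours. Cryoablation replicate 1 lies above the other cryoablation tumours in the lymphocyte and interferon genes, such as Gzmb (9.39 against 2.27 and 2.59), but not in Ccl5 (2.14 against 2.47 and 2.64) or Chil3 (6.35 against 6.74 and 5.24).

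In a list of interferon gamma signalling genes and targets 11 of 18 tested genes rose, with 0 lower and a median of 1.25. The transcription factor Irf1 was at 104, 119 and 126 FPKM after cryo-thermal therapy and at 72.3, 38.7 and 29.3 after cryoablation (log2 fold change 1.39, SE 0.32, adjusted p = 0.0312). The feedback inhibitor Socs1 rose by 1.28. The ubiquitin-like modifier Ubd showed the largest log2 fold change of the list, 2.96 (SE 0.65, adjusted p = 0.0264), from 27.9, 5.48 and 3.07 to 81.0, 66.6 and 63.4 FPKM. Ido1, the enzyme that starts tryptophan breakdown, was at 8.73, 10.5 and 12.1 against 4.46, 0.369 and 0.348 FPKM (2.39, SE 0.43, adjusted p = 0.0159). The serpins Serpina3f and Serpina3g rose by 2.82 and 2.33, and as near-identical copies of one family their reads may have been split between them. Cxcl9, a chemokine that draws T cells and is a classical target of interferon gamma, was at 32.3 ± 2.1 against 13.0 ± 12.2 FPKM and did not pass (1.60, adjusted p = 0.0746). Cxcl10, also in this list, had its only negative value (-0.18) and is given below with the chemokines.

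The GTPases of cell-autonomous immunity, which attack the vacuoles of intracellular pathogens, had the largest list medians. Of 9 guanylate-binding proteins 6 rose and 0 fell, with a median of 1.84, and of 9 immunity-related GTPases 6 rose and 0 fell, with a median of 2.02. Gbp4 was at 31.6, 40.1 and 41.9 FPKM after cryo-thermal therapy and at 16.0, 4.44 and 1.78 after cryoablation (2.60, SE 0.56, adjusted p = 0.0255). Igtp was at 121, 152 and 169.7 against 75.7, 19.9 and 13.2 FPKM (2.38, SE 0.58, adjusted p = 0.0356). Irgm2 and Tgtp2 rose by 2.02 and 2.21, and Tgtp2 has a near-identical neighbour, Tgtp1, that differed by 2.65 with an adjusted p of 0.0551. In cryoablation tumour 1 both families stood well above the other tumours of that group, by a median of 1.59 log2 units for the guanylate-binding proteins and 1.83 for the immunity-related GTPases. Without that tumour 9 of 9 genes passed in each family and the medians were 2.36 and 2.63. Leaving out cryoablation tumour 2 or 3, or cryo-thermal tumour 2 or 3, left 0 in each family. The lowest medians over all the alternatives were 1.31 and 1.57, without cryoablation tumour 3.

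Promoter sequences of the GTPases are shown because 3 of the genes that rose most share an arrangement of both interferon elements. RefSeq windows of GRCm38.p6, from 250 bases before to 50 after each annotated start, were searched on both strands for the GAS letters TTCNNNGAA and for the ISRE as GAAA, any 2 bases and GAAA again, and matches of the 2 can overlap. The lines below give the 250 bases before the start, 5′ to 3′ on the strand of the gene, with matches in capitals. Igtp lies at chr11:58199306-58199555 on the plus strand, Irgm2 at chr11:58214727-58214976 on the plus strand and Tgtp2 at chr11:49064213-49064462 on the minus strand.
Igtp: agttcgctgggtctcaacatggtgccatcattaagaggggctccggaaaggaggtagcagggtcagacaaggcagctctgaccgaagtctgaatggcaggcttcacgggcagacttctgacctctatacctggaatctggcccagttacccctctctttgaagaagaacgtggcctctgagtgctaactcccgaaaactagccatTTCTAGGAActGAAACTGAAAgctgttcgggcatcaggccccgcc
Irgm2: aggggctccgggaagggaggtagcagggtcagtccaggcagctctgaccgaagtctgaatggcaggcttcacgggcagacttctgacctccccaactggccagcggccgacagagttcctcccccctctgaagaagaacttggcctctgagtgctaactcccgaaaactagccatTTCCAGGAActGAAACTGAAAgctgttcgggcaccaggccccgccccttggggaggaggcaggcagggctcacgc
Tgtp2: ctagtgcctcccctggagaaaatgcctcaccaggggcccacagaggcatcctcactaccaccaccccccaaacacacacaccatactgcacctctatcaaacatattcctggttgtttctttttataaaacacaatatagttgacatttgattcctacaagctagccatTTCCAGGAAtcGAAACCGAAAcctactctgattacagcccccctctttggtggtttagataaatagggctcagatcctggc
Each holds 1 GAS and 1 ISRE match, at -45 and -34 from the start in Igtp, -75 and -64 in Irgm2 and -81 and -70 in Tgtp2. The ISRE match begins 11 bases after the GAS match in all 3. This joined arrangement was found in 5 of 32851 RefSeq windows (0.0152%), those of Igtp, Irgm2, Tgtp1, Tgtp2 and Gm12185, which belong to the same gene family. Gm12185 rose by 1.86 (adjusted p = 0.0121), so that 4 of the 5 genes passed and Tgtp1 did not. The arrangement was searched for after these sequences had been seen.

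Over all genes that rose, this family included, GAS or ISRE letters were in 21.3% of the 390 windows of the 305 genes with a window, in 33.7% of the 92 windows of the 79 such genes above 2-fold, and in 5.79% of the 121 windows of the 84 genes that fell. Over the windows of all genes tested the share was 9.82%, and over the 32851 windows it was 11.3%. GAS letters were in 14.6% of the windows of genes that rose and in 7.02% of those of genes tested, and ISRE letters in 10.0% and 3.20%. A match describes the letters and is not a bound site. The promoter of Serpina3g (chr12:104235897-104236146, plus strand) has a GAS match at -33 and no ISRE match. That of Chil3, the gene with the largest log2 fold change (chr3:106167565-106167814, minus strand), has a GAS match at -172. The windows of other genes with large rises, Ubd, Acod1, H2-Eb1 and AW112010, hold neither element.
Serpina3g: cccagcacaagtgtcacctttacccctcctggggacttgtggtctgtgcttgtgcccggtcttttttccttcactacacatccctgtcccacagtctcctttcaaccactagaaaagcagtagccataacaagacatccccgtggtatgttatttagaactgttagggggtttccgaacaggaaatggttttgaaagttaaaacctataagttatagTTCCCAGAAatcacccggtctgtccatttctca
Chil3: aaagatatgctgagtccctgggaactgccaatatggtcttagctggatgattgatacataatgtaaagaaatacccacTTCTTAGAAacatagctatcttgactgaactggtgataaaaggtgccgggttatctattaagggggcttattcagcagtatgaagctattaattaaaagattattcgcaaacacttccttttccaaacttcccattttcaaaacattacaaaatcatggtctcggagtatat

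Antiviral genes of the type I interferon response differed less. In this list 1 of 28 tested genes rose, Irf9, a part of the factor that binds the ISRE, at 21.2 ± 1.09 against 12.2 ± 4.19 FPKM (0.80, SE 0.20, adjusted p = 0.0376). The median of the 28 was 0.62, and 14 were higher at an unadjusted p under 0.05. Isg15 was at 34.3, 34.0 and 29.5 FPKM after cryo-thermal therapy and at 46.5, 12.9 and 13.5 after cryoablation. Irf7 was at 15.3, 19.2 and 19.8 against 27.3, 8.51 and 8.10. In both genes cryoablation tumour 1 was the highest of the 6 tumours, so the groups overlapped, and neither passed (adjusted p = 0.40 for Isg15 and 0.535 for Irf7). That tumour was above the other cryoablation tumours in all 28 genes, by a median of 1.23 log2 units. Without it 16 of the 28 passed and the median was 1.04, whereas 0 passed without cryoablation tumour 2 or 3 or cryo-thermal tumour 2 or 3.

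Genes of antigen presentation were among the most abundant of those that rose. In the MHC class I list 13 of 21 tested genes rose, 0 fell and the median was 0.98. H2-K1, a class I heavy chain, was at 1292, 1538 and 1646 FPKM against 1201, 612 and 574 (0.98, SE 0.26, adjusted p = 0.0459). The peptide transporter subunits Tap1 and Tap2 rose by 1.55 and 1.24, the immunoproteasome subunits Psmb8 and Psmb10 by 1.39 and 1.43, and the class I transactivator Nlrc5 by 1.24. B2m, the shared light chain, was at 4356 ± 308 against 3055 ± 831 FPKM and did not pass (0.54, adjusted p = 0.114). Reads of class I heavy chains can be shared between close copies of the family. In the MHC class II list 8 of 10 genes rose with a median of 1.17. The invariant chain Cd74 was at 516, 955 and 1161 FPKM after cryo-thermal therapy and at 480, 183 and 165 after cryoablation (1.76, SE 0.45, adjusted p = 0.0413). H2-Aa, H2-Ab1 and H2-Eb1 rose by 1.69, 1.73 and 1.91, the class II transactivator Ciita by 0.98 and the protease Ctss, which trims the invariant chain, by 1.17. Cryo-thermal tumour 1 was the lowest of its group in H2-K1, Cd74 and H2-Eb1 and was close to cryoablation tumour 1, with 142 against 132 FPKM for H2-Eb1. Without cryoablation tumour 1, 20 of 21 class I genes and 8 of 10 class II genes passed. In both lists 0 passed without cryoablation tumour 2 or 3 or cryo-thermal tumour 2 or 3. With the keratinocyte, hair follicle or muscle level as a covariate 7, 6 and 2 class I genes and 1, 0 and 0 class II genes passed, with medians between 0.94 and 1.12 for class I and between 1.12 and 1.32 for class II.

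**Figure D2:**
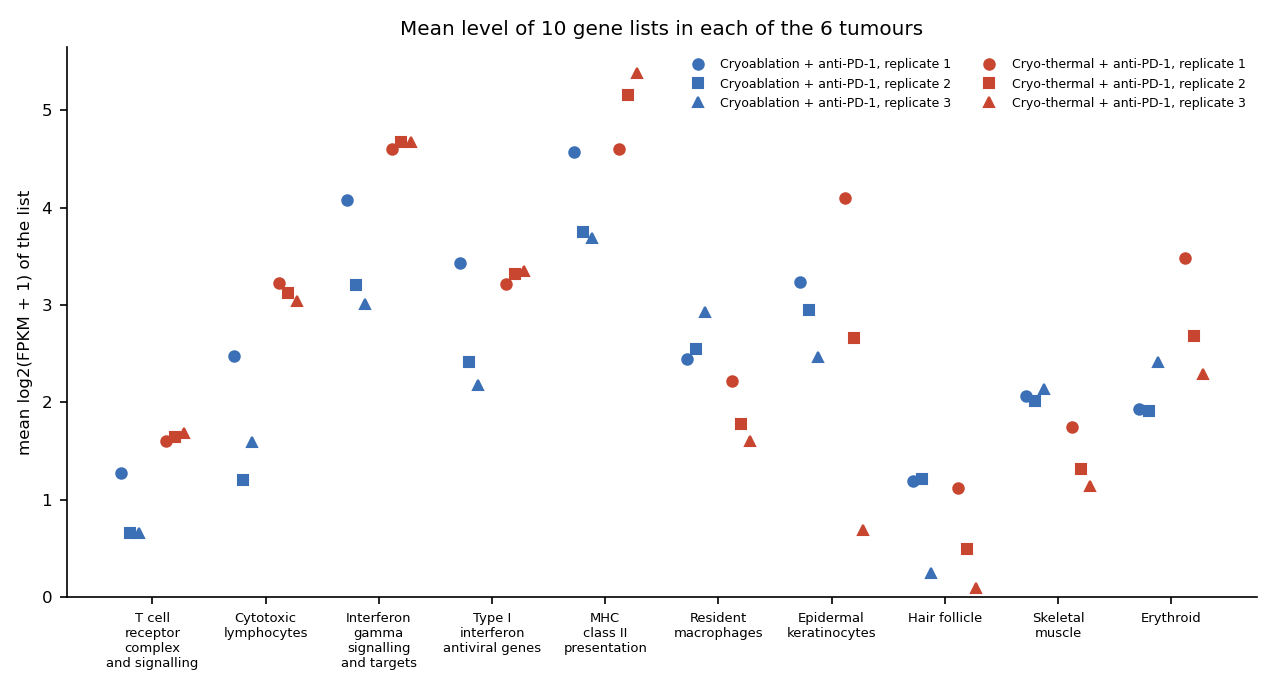
Mean log2(FPKM + 1) in each of the 6 tumours over all genes of 10 lists that are in the table, tested or not, with colour for the group and marker shape for the replicate number. Lymphocyte and interferon gamma lists are higher in all 3 cryo-thermal tumours; the type I interferon list overlaps, with cryoablation replicate 1 at the top, keratinocyte and erythroid lists are highest in cryo-thermal replicate 1, and the skeletal muscle list is lower in all 3 cryo-thermal tumours (1.74, 1.31 and 1.14 against 2.06, 2.01 and 2.14).

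Chemokines mostly did not pass. Of 9 lymphocyte chemokines 1 rose, Ccl5, which recruits T cells and is the chemokine named in the title of the series. It was at 6.49, 9.51 and 8.70 FPKM after cryo-thermal therapy and at 2.14, 2.47 and 2.64 after cryoablation (1.42, SE 0.36, adjusted p = 0.0404). In Ccl5 the groups did not overlap and cryoablation tumour 1 was the lowest of its group. Over 20 alternatives its log2 fold change ran from 1.29 to 1.71, and in 12 of them it did not pass the threshold. Cxcl10, another chemokine of T cells, was at 235, 144 and 57.8 against 77.7, 186 and 195 FPKM, with overlapping groups. In limma 0 of 13 monocyte and eosinophil chemokines and 0 of 5 neutrophil chemokines passed, with 7 and 0 at an unadjusted p under 0.05 and medians of 0.51 and 0.34. Ccl2, which draws monocytes, was at 228, 193 and 172 against 145, 159.9 and 133 FPKM (0.43, adjusted p = 0.224).

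In a list of inflammatory myeloid activation 6 of 16 genes rose with a median of 0.58. Nos2, the inducible nitric oxide synthase, was at 15.9, 21.3 and 23.5 FPKM after cryo-thermal therapy and at 6.89, 1.80 and 2.22 after cryoablation (2.34, SE 0.45, adjusted p = 0.0181). Acod1, which makes itaconate, was at 13.4, 15.0 and 16.0 against 5.48, 1.50 and 1.13 FPKM (2.28, SE 0.56, adjusted p = 0.0366). The cytokine Il1a was at 4.94, 4.02 and 3.69 against 0.924, 1.19 and 0.933 FPKM (1.37, SE 0.30, adjusted p = 0.027), with the cryoablation tumours close together. Fpr2, Cd40 and Slc7a2, an arginine transporter, rose by 1.70, 1.00 and 1.22. Enzymes of arginine, nitric oxide and tryptophan rose in 7 of 10 genes with a median of 0.86, among them Ass1, which remakes arginine (1.71), and Wars1, the tryptophanyl-tRNA synthetase (0.65). That list shares Nos2, Slc7a2, Ido1 and Arg1 with others.

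Chil3 and Arg1 were the 2 of 12 genes of alternative myeloid activation that rose, and the median of that list was 0.22. Chil3, a secreted chitinase-like protein of monocytes and macrophages, was at 43.2, 108 and 144 FPKM after cryo-thermal therapy and at 6.35, 6.74 and 5.24 after cryoablation. The groups were far apart, and the cryoablation tumours lay close together. The ratio of means was 16.1 and the log2 fold change 3.65 (SE 0.69, adjusted p = 0.0167). Arg1, arginase, was at 348, 431 and 465 against 247, 170.0 and 180.2 FPKM (1.06, SE 0.24, adjusted p = 0.0291). Other genes that rose with myeloid roles were the Fc receptor Fcgr4 (1.96), the surface receptor Slamf8 (1.93), the monocyte gene Ly6i (1.84) and coagulation factor F10 (1.39). Of 11 inflammatory monocyte genes 3 rose, Chil3, F10 and Ly6i, with a median of 0.37. Among general macrophage genes 1 of 19 passed, Fcgr4, 11 were higher at an unadjusted p under 0.05 and the median was 0.52. Without cryoablation tumour 1, 6 of those 19 passed, and without any other single tumour of the 6, 0 did. In limma 0 of 12 neutrophil genes passed, with 2 at an unadjusted p under 0.05, and the 20 neutrophil genes in the table summed to between 67.8 and 454 against between 61.6 and 111 FPKM. Among them S100a8 was at 142, 42.1 and 9.04 against 10.7, 34.4 and 15.1 FPKM.

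Genes of resident macrophages fell in 4 of 16 tested members, with 0 higher and a median of -0.90. The C-type lectin Cd209f was at 1.51, 0.501 and 0.0961 FPKM after cryo-thermal therapy and at 4.69, 5.16 and 6.79 after cryoablation (-2.02, SE 0.34, adjusted p = 0.0122). Fcrl2, listed by the older symbol Fcrls and expressed by resident macrophages, was at 2.85, 0.878 and 1.07 against 6.80, 13.0 and 13.0 FPKM (-2.22, SE 0.49, adjusted p = 0.0266). The carbonyl reductase Cbr2 was at 6.92, 2.94 and 2.50 against 15.3, 17.4 and 32.4 FPKM (-2.17, SE 0.58, adjusted p = 0.0484). Cd209g fell by 0.82 on the log2 scale. These 4 genes were named from the largest falls with values that do not overlap, so their lack of overlap follows from that choice. Cryo-thermal tumour 1 was the highest of its group in each of them. Scavenger receptor Cd163 and complement receptor Vsig4 were also lower in all 3 cryo-thermal tumours but did not pass (-1.11, adjusted p = 0.116, and -1.27, adjusted p = 0.0615). Mrc1, the mannose receptor, was at 19.1 ± 3.57 against 21.5 ± 3.47 FPKM, and its groups overlapped. Leaving out the 3 skin-rich tumours left only cryoablation tumour 3 in its group, and the list's median was then -1.50.

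Caveolae, small pits of the plasma membrane, lost transcripts of 3 of 6 tested components, with a median of -0.46. Cavin2, which shapes caveolae, was at 6.17, 5.78 and 5.29 FPKM after cryo-thermal therapy and at 10.3, 17.4 and 12.2 after cryoablation (-1.06, SE 0.14, adjusted p = 0.00866). Cav1 was at 118, 96.9 and 90.8 against 140.3, 153 and 166 FPKM (-0.59, SE 0.12, adjusted p = 0.0233), and Cav2 fell by 0.79 on the log2 scale. Neither endothelium, which is rich in caveolae, nor fibroblasts moved as lists: 0 of 16 endothelial and 0 of 18 fibroblast genes passed in limma, with 0 and 0 at an unadjusted p under 0.05 and medians of -0.04 and -0.17. The endothelial adhesion molecule Pecam1 was at 11.5 ± 3.32 against 11.6 ± 1.21 FPKM.

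Histone genes were among the largest falls in FPKM. H1f2, a linker histone, was at 45.7, 45.0 and 46.8 FPKM after cryo-thermal therapy and at 86.1, 128 and 138 after cryoablation (-1.31, SE 0.31, adjusted p = 0.0336). H2bc8 was at 2.58, 2.24 and 1.37 against 5.47, 7.07 and 8.22 FPKM (-1.38, SE 0.28, adjusted p = 0.0219), and H1f0 at 457, 417 and 407 against 533, 604 and 689.9 (-0.51, SE 0.09, adjusted p = 0.0159). Cryoablation tumour 1 was the lowest of its group in these 3 genes. Over 39 histone genes, a family gathered after these values were seen, 5 fell, 0 rose, 34 had a negative value and the median was -0.25. Among all genes tested 0.818% fell, 3.24% rose and 52.4% had a positive value. Most histone messages lack a poly(A) tail, so their share depends on how RNA was selected, which the sources used here do not give. Proliferation genes did not fall with them: 0 of 21 passed in limma, with 0 at an unadjusted p under 0.05 and a median of 0.09. Of the 21, 17 had a positive value, against 52.4% of all genes tested. FPKM values did not overlap between the groups for 10 of the 21, against 25.9% of all genes tested. Top2a, a gene of dividing cells, was at 155 ± 0.775 against 129 ± 7.06 FPKM (0.26, adjusted p = 0.296).

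Other falls were small in log2 terms and came from genes of varied roles. Emp1, an epithelial membrane protein, fell from 562 ± 75.5 to 370 ± 6.19 FPKM (-0.59, adjusted p = 0.0101), and the pseudokinase Trib2 from 10.9 ± 0.837 to 6.98 ± 0.0525 (-0.57, adjusted p = 0.0101). The transcription factor Sox2 was at 8.33, 8.73 and 8.44 against 13.3, 20.2 and 16.4 FPKM, a log2 difference of -0.88 (SE 0.18, adjusted p = 0.0225). The lipoxygenase Alox5, which starts leukotriene synthesis, fell by 0.90, the potassium channel subunit Kcne3 by 0.88, the chaperone Dnajb4 by 0.69 and the protease Prss23 by 0.69, all on the log2 scale. At the high end of expression, Ugdh, Akr1a1, Csrp2, Pfdn5 and Ssr3 fell by between 0.24 and 0.41, with adjusted p between 0.0219 and 0.0431.

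Complement, cell death and structural genes completed the rises. Of 14 complement genes 3 rose with a median of 0.57: C3 was at 27.6, 40.4 and 46.2 against 16.1, 8.28 and 11.2 FPKM (1.62, SE 0.37, adjusted p = 0.0297), and the proteases C1s1 and C1ra rose by 1.34 and 1.00. In a list of inflammatory cell death 4 of 18 genes rose, among them Casp4 (0.94), the pore former Gsdmd (0.60) and Bak1 (0.35). Without cryoablation tumour 1, 13 of 18 passed, and without cryoablation tumour 2 or 3 or cryo-thermal tumour 2 or 3, 0 did. Tubb3, a beta tubulin, was at 356, 377 and 385 against 243, 189 and 199 FPKM (0.83, SE 0.18, adjusted p = 0.0241). The non-coding transcript AW112010 rose by 2.30 and AA467197, a small gene of the interferon and inflammatory response, by 1.49. Of 5 tested epithelial genes 2 rose: Muc1 was at 1.31, 1.36 and 1.32 against 0.589, 0.495 and 0.497 FPKM (0.61, adjusted p = 0.0213), and Cdh1 (E-cadherin) at 4.61, 5.07 and 5.19 against 3.13, 3.49 and 3.17 (0.48, adjusted p = 0.0277). The epithelial list summed to between 6.19 and 12.5 FPKM in the 6 tumours, and its member Cldn7 was at 0 in all of them. Melanocyte genes summed to between 0.866 and 1.40 FPKM, with Mlana at 0 in all 6.

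**Figure D3:**
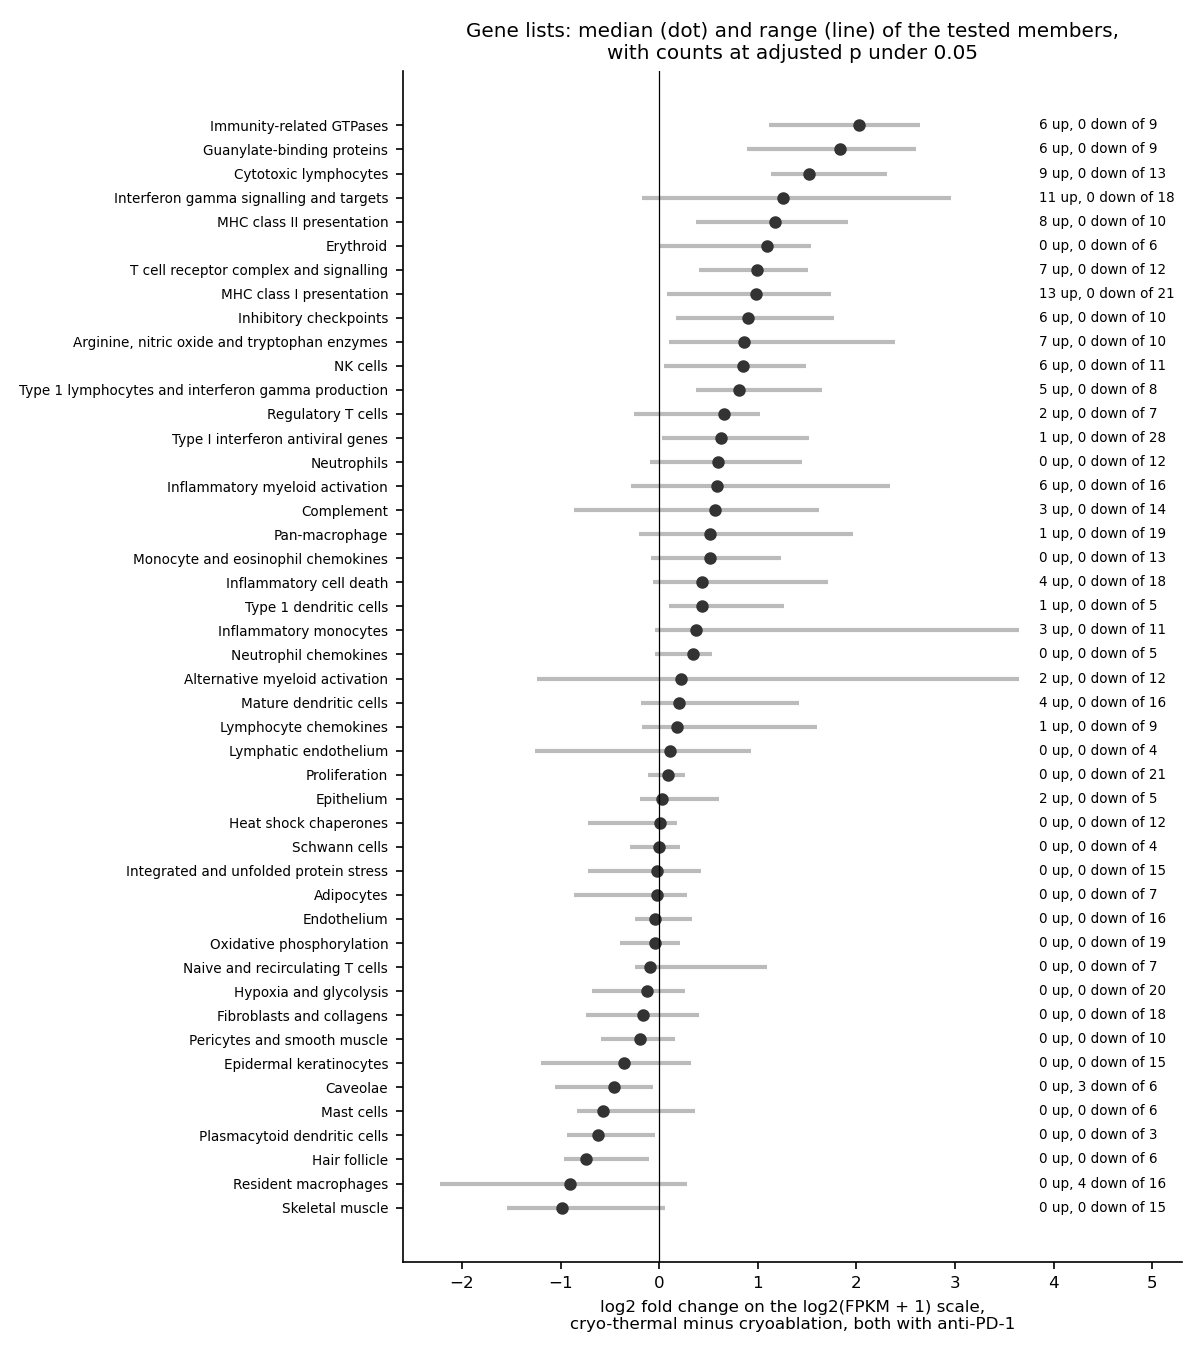
Median (dot) and range (grey line) of the log2 fold changes of the tested genes in each list with at least 3 tested members, cryo-thermal plus anti-PD-1 minus cryoablation plus anti-PD-1 on the log2(FPKM + 1) scale; text at the right gives how many genes passed in each direction. Immunity-related GTPases (2.02), guanylate-binding proteins (1.84) and cytotoxic lymphocytes (1.52) have the highest medians, and skeletal muscle (-0.99) and resident macrophages (-0.90) the lowest.

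Lists of other tissues and of general cell states held no gene past the threshold. They were keratinocytes (0 of 15, median -0.35), hair follicle (0 of 6, -0.75), skeletal muscle (0 of 15, -0.99), erythroid cells (0 of 6, 1.09), hypoxia and glycolysis (0 of 20, -0.12), oxidative phosphorylation (0 of 19, -0.05), integrated and unfolded protein stress (0 of 15, -0.02) and heat shock chaperones (0 of 12, 0.01). At an unadjusted p under 0.05 limma gave 0, 0, 7, 0, 1, 0, 2 and 3 genes in these 8 lists in that order. Over all genes tested it gave 2605 of 12587. The medians of some of these lists rested on single tumours. That of keratinocytes was -0.99 without cryo-thermal tumour 1 and 0.56 without cryo-thermal tumour 3, and that of hair follicle ran from -1.55 to -0.14 over such omissions. That of erythroid cells was 0.67 without cryo-thermal tumour 1 and 0.14 without the 3 skin-rich tumours. In skeletal muscle 10 of the 15 genes did not overlap between the groups, against 25.9% of all genes tested. Ckm, muscle creatine kinase, was at 1.62, 0.698 and 0.280 against 3.98, 3.87 and 4.40 FPKM (-1.51, adjusted p = 0.0667). Keratin 14 (Krt14) was at 244, 112 and 60.8 against 109, 139.6 and 83.5 FPKM, with a wider spread inside the cryo-thermal group. Lymphatic endothelium (0 of 4, median 0.11), pericytes and smooth muscle (0 of 10, -0.20), adipocytes (0 of 7, -0.02) and Schwann cells (0 of 4, -0.003) held none past the threshold in limma, with 1, 2, 2 and 2 at an unadjusted p under 0.05. Mast cell genes (0 of 6, median -0.57), plasmacytoid dendritic cell genes (0 of 3, -0.62) and B and plasma cell genes (0 of 2, 0.09) did not pass either, with 0, 1 and 0 at an unadjusted p under 0.05. The 3 plasmacytoid genes tested were Tcf4, Ly6d and Cox6a2. Siglech and Ccr9 of that list were under the filter, so its median says little about that cell type. Among dendritic cell genes Irf8, shared with the interferon list, was the 1 of 5 of the cross-presenting type that rose, by 1.27, and 4 of 16 mature dendritic cell genes rose, Ccl5, Cd40, Birc3 (0.46) and Traf1 (0.44).

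The same pair of ablations was compared in tumours of mice without the antibody, 3 after cryo-thermal therapy and 3 after cryoablation, which share no tumour with the 6 above. Without anti-PD-1, 1008 genes were higher after cryo-thermal therapy (8.01%) and 876 lower (6.96%). Of the 408 genes that rose with the antibody, 195 also rose without it, 47.8% of the 408 and 19.3% of the 1008, and 6 fell. Of the 103 that fell with the antibody, 26 also fell without it, 25.2% of the 103 and 2.97% of the 876, and 3 rose. Signs were shared more widely: 355 of the 408 were positive without the antibody and 82 of the 103 negative, where 48.4% of all genes tested were positive. Guanylate-binding protein and immunity-related GTPase genes rose in both settings, 6 of 9 in each family with the antibody and 9 of 9 in each without it, with Gbp4 at 36.1, 20.3 and 17.6 against 0.952, 2.52 and 2.08 FPKM without the antibody. The type I interferon list had 27 of 28 genes higher without the antibody, with a median of 1.93, against 1 of 28 and 0.62 with it. The test of the difference called 0 of these 28 genes in limma and had 18 at an unadjusted p under 0.05.

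**Figure D4:**
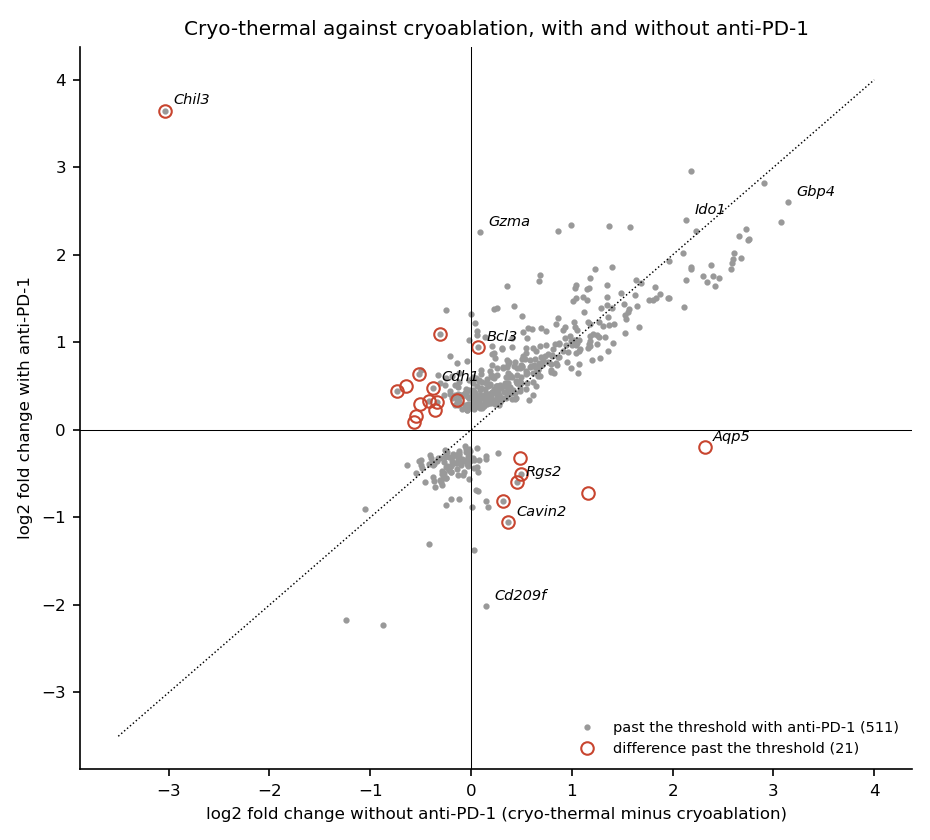
Log2 fold change of cryo-thermal minus cryoablation with anti-PD-1 (vertical) against that without it (horizontal) for the 511 genes past the threshold with the antibody (grey) and the 21 genes whose difference passed (red rings); the dotted line marks equal values. Chil3 lies at 3.65 with and -3.03 without the antibody, and Gbp4 at 2.60 and 3.14.

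The difference between these fold changes was tested directly, and 21 genes passed (0.167% of those tested), 14 with a larger value under the antibody and 7 with a smaller one, with 1687 at an unadjusted p under 0.05. Chil3 had the largest difference, 6.68 (adjusted p = 0.013). Without the antibody it was at 3.43, 4.05 and 13.4 FPKM after cryo-thermal therapy and at 129, 19.2 and 66.0 after cryoablation, the opposite order from that with the antibody, and it fell there (-3.03, adjusted p = 0.0117). The polyamine regulator Azin2 was at 11.2, 11.0 and 12.2 against 6.94, 7.00 and 7.09 FPKM with the antibody and at 8.20, 7.43 and 8.20 against 11.9, 10.2 and 13.3 without it, and passed in each setting, in opposite directions. Plxnb1, a semaphorin receptor, behaved alike, with a rise of 0.45 with the antibody and a fall of 0.74 on the log2 scale without it. Cdh1 rose by 0.48 and fell by 0.38. Bcl3 was at 19.1, 19.1 and 18.1 against 10.8, 8.46 and 8.60 FPKM with the antibody and at 13.9, 11.1 and 12.8 against 11.6, 11.5 and 12.8 without it.

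Among the 7 genes with a smaller value under the antibody, Cavin2 was at 17.1, 16.4 and 15.2 FPKM after cryo-thermal therapy without the antibody against 12.8, 12.8 and 11.5 after cryoablation, and its values with the antibody are given above. The difference was -1.42 (adjusted p = 0.0103). Rgs2, which damps signals of G protein-coupled receptors, was at 5.55, 4.45 and 4.13 against 8.33, 6.97 and 7.51 FPKM with the antibody and at 7.53, 6.52 and 6.82 against 5.37, 4.28 and 4.76 without it, with no overlap in either setting. Bdnf, a neurotrophin, fell by 0.50 on the log2 scale with the antibody and rose by 0.49 without it. Aqp5, a water channel, passed for the difference through its rise without the antibody (2.32), while with it the groups overlapped (-0.19, adjusted p = 0.767). The number of such genes also rested on single tumours: it was 0 without cryoablation tumour 3 and 1 without cryoablation tumour 1 of the groups without antibody, 189 without cryo-thermal tumour 3 and 52 without cryoablation tumour 2 of those groups, and between 3 and 11 when any one of the 6 tumours with antibody was left out. With each tumour's muscle or erythroid level as a covariate 0 and 0 genes passed, with 1102 and 1354 genes at an unadjusted p under 0.05. Erythroid genes differed between these groups too: Hbb-bs, a globin, was at 12.3, 11.3 and 99.3 FPKM after cryo-thermal therapy and at 365, 258 and 418 after cryoablation without the antibody. Their part in the differences was not tested beyond that covariate.

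**Figure D5:**
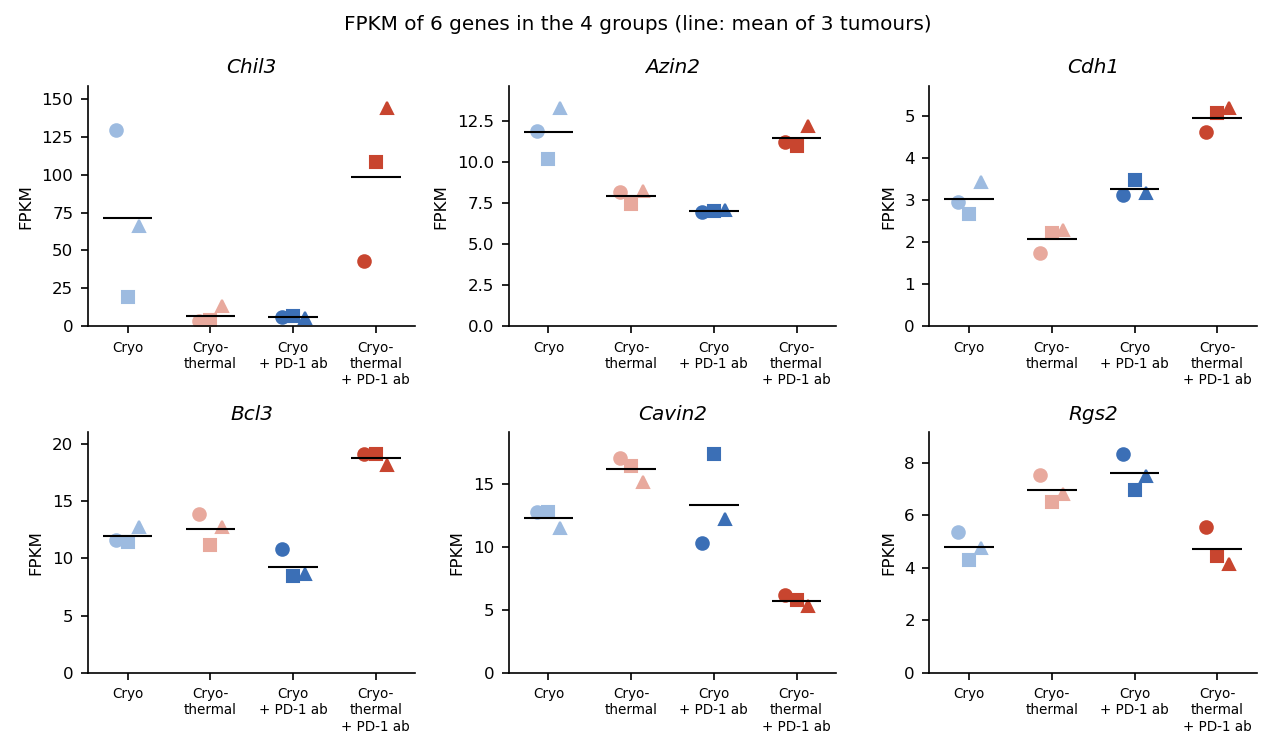
FPKM (vertical axis from 0) of Chil3, Azin2, Cdh1, Bcl3, Cavin2 and Rgs2 in the 3 tumours of each of 4 groups, cryoablation and cryo-thermal therapy without and with anti-PD-1, with marker shape for the replicate number and a line at the mean. Chil3 is high in cryoablation tumours without the antibody (129, 19.2 and 66.0) and in cryo-thermal tumours with it (43.2, 108 and 144).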

How the data were processed

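Bulk RNA was sequenced from 18 mouse tumours, and 6 of them form the comparison described. Per the labels, RNA was isolated in TRIzol, cleaned on silica columns and treated with DNase before VAHTS Universal V6 library preparation. The authors deposited FPKM values per gene, and the submitters' processing notes list HTSeq 0.11.2. The sources used here do not give the aligner, genome build, annotation, strand or filters, and the table holds no fragment counts, so no count test was run.

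Groups and replicate numbers came from the labels, and 0 columns belonged to other samples. Genes averaging 0.5 FPKM or more were fitted as log2(FPKM + 1), with a pseudocount of 1 and 1 mean per group over all 18 tumours, in limma 3.58.1 (R 4.3.3, moderated variances with a trend, 12 residual degrees of freedom). Tests were 2-sided, adjusted by Benjamini and Hochberg over 12587 genes, with a threshold of 0.05, and an exact permutation test of 3 against 3 cannot go under 0.1. SE is limma's error of a log2 fold change. On simulated data for this comparison, 97.2% of 106 genes with a log2 change of 1 and 98.9% of 94 with a change of 2 were recovered over 12587 genes, with 8 false among 204 calls. The simulated noise was independent between genes and alike in all tumours, and only genes above a set level were changed. In the real tumours many genes moved together, so these shares do not give the error rate of the calls above. The 49 gene lists and the genes described were chosen with earlier results of these data known. Of 691 list entries 680 matched by symbol, 4 by gene number and 7 were not found, and 518 different genes passed the filter. Genes named were the 20 largest changes in each direction with values that do not overlap, the 10 largest changes in FPKM in each direction, up to 4 that passed per list (or the 2 most expressed), and Ccl5, Pdcd1 and Cd274; predicted genes, clones and receptor segments were left out of the first group, and further list members were named after their values were seen. Lists share genes and were not tested as sets. A few list members counted here are not reported by name. Promoter windows matched 10050 of the 12587 genes by gene number. Pseudocount, filter, scaling, weights, covariates and omitted tumours were varied. Other steps ran in Python 3.11.15 with pandas 2.3.3, numpy 2.4.6 and matplotlib 3.10.9.

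Same-numbered tumours of the 2 groups did not deviate together in every pair, so the replicate number was not used as a pairing.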

Additional observations from a re-analysis of the deposited data

Results flagged for a closer look

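For 21 genes the cryo-thermal minus cryoablation difference under anti-PD-1 departed from that without the antibody by limma's test of the difference (adjusted p under 0.05). The differences of log2 fold changes were positive for Chil3 (6.681), 4930579C12Rik (1.409), Plxnb1 (1.19), Azin2 (1.149), Gm35946 (1.148), Bcl3 (0.8795), Cdh1 (0.8618), Dnajc22 (0.8105), Myo10 (0.7502), Chst11 (0.7031), Dennd2b (0.6591), Fut8 (0.6531), Pla2g7 (0.5829) and Etv6 (0.4756). They were negative for Aqp5 (-2.514), Gm2694 (-1.88), Cavin2 (-1.425), Gm36582 (-1.126), Rgs2 (-1.054), Bdnf (-0.9905) and Mcc (-0.8088). Fut8, a fucosyltransferase, and Chst11, a chondroitin sulfotransferase, fell without the antibody (-0.57 and -0.54) and did not pass with it (0.09 and 0.16). The spliced non-coding gene Gm2694 was at 7.30, 7.07 and 5.08 FPKM after cryo-thermal therapy and at 14.2, 8.63 and 11.5 after cryoablation with the antibody, and at 14.6, 13.3 and 11.3 against 4.26, 5.86 and 5.83 without it.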

How the results depend on the processing

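The groups compared have 3 tumours each and the file gives no counts, so counting error could not be separated from the spread between tumours. For cryo-thermal against cryoablation, both with anti-PD-1 (511 genes), 180 genes passed with no filter on low values, 0 in a fit to the groups compared alone, 4156 with array weights, whose estimation stopped before its tolerance, 337, 232, 109 and 1055 with the keratinocyte, hair follicle, skeletal muscle or erythroid level as a covariate, and 329 without the 3 skin-rich tumours. Leaving out 1 tumour gave 2 to 1052. For the difference from the contrast without the antibody (21 genes), 2636 passed with array weights and 9 with the replicate number as a block. With the keratinocyte, muscle or erythroid level 32, 0 and 0 passed, and leaving out 1 tumour gave 0 to 189. Deviations of same-numbered tumours correlated at 0.011, 0.104 and 0.127 for numbers 1 to 3, against -0.147 to 0.053 for tumours of different number. Numbers 2 and 3 thus lay above that range and number 1 inside it, so a pairing was not settled. With the number as a block 396 genes passed in the first comparison. Among them were 7 of 21 of the MHC class I list and 1 of 10 of the class II list, against 13 and 8 in the main fit. In each setting 0 of the 511 changed sign. Of the 101 genes named among them, 32 passed with the muscle level and 1 to 4 without cryo-thermal tumour 2 or 3 or cryoablation tumour 2 or 3.

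Log2 fold changes that changed sign were those of genes that had not passed. With the muscle level they were Atp5b (0.04264), Cxcl1 (-0.2369) and Tpm2 (0.002115), with the erythroid level Hba-a1 (-0.1385), Hbb-bs (-0.3386) and Krt14 (-0.1391), and with the keratinocyte or hair follicle level Pecam1 (0.06929 and 0.07608). Array weights turned Eno3 (-0.003113), Pcna (-0.007711) and Tnfrsf13c (-0.07114), and quantile scaling Hsp90aa1 (-0.00237). Without the skin-rich tumours Cxcl1 (-0.1332), Hbb-bs (-0.1427), Krt14 (-0.01606), Pcna (-0.02571) and Tnfrsf13c (-0.01066) turned. Leaving out 1 tumour at a time turned these genes in at least 1 case, with the lowest to highest values given: Atp5b (-0.1157 to 0.008887), Cxcl1 (-0.2139 to 0.518), Dcn (-0.4081 to 0.01001), Eno3 (-0.04485 to 0.1249), Fabp4 (-1.024 to 0.08385), Hsp90aa1 (-0.04691 to 0.09738), Hspa5 (-0.07671 to 0.01538), Jchain (-0.1255 to 0.4021), Krt14 (-0.3888 to 0.6054), Lgals7 (-2.562 to 0.5672), Ly6d (-2.055 to 0.4014), Pcna (-0.05174 to 0.1218), Pecam1 (-0.244 to 0.1014) and S1pr1 (-0.2427 to 0.03985). The median of the alternative myeloid list ran from -0.04477 to 0.3355 when 1 tumour was left out, and that of the epithelial list was -0.2057 and -0.03292 with pseudocounts of 0.1 and 0.5, -0.06002 after rescaling to equal sums, -0.1151 with the erythroid level and ran from -0.0727 to 0.4106 when 1 tumour was left out. Medians of 12 lists in which 0 genes passed also changed sign in at least 1 setting, with these lowest to highest values: keratinocytes (-1.26 to 0.56), skeletal muscle (-1.27 to 0.002, the latter with its own level as the covariate), erythroid cells (-0.04, with its own level, to 1.54), neutrophil chemokines (-0.09 to 0.67), adipocytes (-0.33 to 0.22), endothelium (-0.21 to 0.07), naive T cells (-0.13 to 0.02), B and plasma cells (-0.01 to 0.31), Schwann cells (-0.30 to 0.03), oxidative phosphorylation (-0.12 to 0.04), protein stress (-0.12 to 0.07) and heat shock (-0.05 to 0.11). The cause of these changes was not tested.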
